A study of Mus musculus with 9 samples.

Results

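The 8 genes described here belong to the early response to antigen receptor signals and were measured in mouse CD4+ T cells: the zinc finger transcription factor genes Egr1, Egr2 and Egr3, the orphan nuclear receptor genes Nr4a1, Nr4a2 and Nr4a3, the immediate early gene Ier2 and the activation receptor gene Cd69. They were taken by symbol from a table of 25759 gene rows, and 8 of 8 were present and tested. RNA was sequenced from 9 libraries in 3 groups of 3. The activated knockout group came from BMPR1a/CD4cre conditional knockout mice, in which the type I bone morphogenetic protein receptor gene Bmpr1a is the target of a Cre recombinase named for Cd4. The activated wild-type (WT) group and the naive WT group came from normal mice. Mice of all 3 groups are labelled C57BL/6, carried a Foxp3GFP reporter transgene and were 8 to 12 weeks old. For both activated groups, lymph node and spleen cells were stimulated in culture for 3 days with ConA, a lectin that drives T cells to divide, at 2 ug/ml, with LPS at 10 ng/ml. CD4+ cells positive for CD44 and negative for the reporter were then sorted by surface markers. Naive cells were untreated and were the CD4+ cells that lacked both CD44 and the reporter. Activation, culture and sort gate therefore differ together between activated and naive groups and cannot be told apart. The labels do not state whether replicates are separate animals or cultures, so the p-values reflect library-to-library spread alone, and this may be technical.

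EGR proteins bind GC-rich DNA and are made soon after T cell receptor engagement. This runs in part through Ras and the ERK kinases, which act on serum response factor at EGR promoters. NR4A proteins are nuclear receptors that act without a known physiological ligand, so their amount in the cell largely sets their activity, and Nr4a1 reporters are widely used as a readout of antigen receptor signalling. IER2 is a nuclear protein of the same early wave, and CD69 is a surface lectin that holds recently stimulated lymphocytes in lymphoid organs by binding the sphingosine phosphate receptor S1PR1.

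Levels are in FPKM (fragments per kilobase, scaled to library size) and can be compared between genes. The read depth behind them is unknown. In each library 12922 to 13395 genes were at or above 1 FPKM, and size factors of the libraries ran from 0.97 to 1.035. Over all rows, FPKM summed to between 3446190 (naive library 1) and 13114288 (activated WT library 2). Every naive library had a lower sum than every activated one. The highest row of a library held 11.16% to 48.6% of its sum. Over protein-coding genes the sums ran from 533142 to 595891 FPKM. Bmpr1a was listed at 0.957, 1.93 and 1.2 FPKM in knockout cells, 2.16, 2.92 and 1.4 FPKM in activated WT cells and 0.46, 0.311 and 0.336 FPKM in naive WT cells. The knockout and activated WT libraries overlapped (limma log2 fold change -0.41, SE 0.208, adjusted p = 0.261), and a level over the whole gene does not read the deleted part alone. An annotated antisense gene overlaps Bmpr1a, and without a strand setting its reads cannot be told apart. The 11 CD4 T cell markers summed to 5630 to 6320 FPKM in the knockout, 5840 to 6530 in activated WT and 5530 to 6130 in naive WT libraries, and none was at 0 throughout a group. The CD8 genes Cd8a and Cd8b1 summed to 220 to 279, 147 to 230 and 9.48 to 41.4 FPKM in the same order of groups, although every library is labelled CD4+. Naive library 2 stood apart from the other naive libraries in neutrophil and heat shock genes, whose values are given beside Cd69.

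Ranked by level, Ier2 was the highest of the 8 genes in all 3 groups and Nr4a2 the lowest. Ier2 averaged 48.9 ± 4.78 FPKM in the knockout, 53.1 ± 4.42 in activated WT and 74.8 ± 3.88 in naive WT cells (SD, n = 3 each). Nr4a2 averaged 3.41 ± 1.2, 2.04 ± 0.612 and 0.616 ± 0.373 FPKM in those groups. The order between them differed. In the knockout it ran Ier2, Nr4a1, Cd69, Egr1, Nr4a3, Egr3, Egr2 and Nr4a2, and only the library values of Egr1 and Nr4a3 overlapped among neighbours. In activated WT cells it ran Ier2, Nr4a1, Cd69, Egr1, Egr3, Nr4a3, Egr2 and Nr4a2, with overlap between Nr4a1 and Cd69 and between Nr4a3 and Egr2. In naive WT cells it ran Ier2, Cd69, Egr1, Nr4a1, Egr3, Egr2, Nr4a3 and Nr4a2, where Cd69 overlapped both Ier2 and Egr1. Among all 15126 tested genes, mean Ier2 stood at percentile 83.7 in the knockout, 85.6 in activated WT and 90.2 in naive WT cells, and mean Nr4a2 at percentile 26.9, 19.9 and 7.8.

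**Figure D1:**
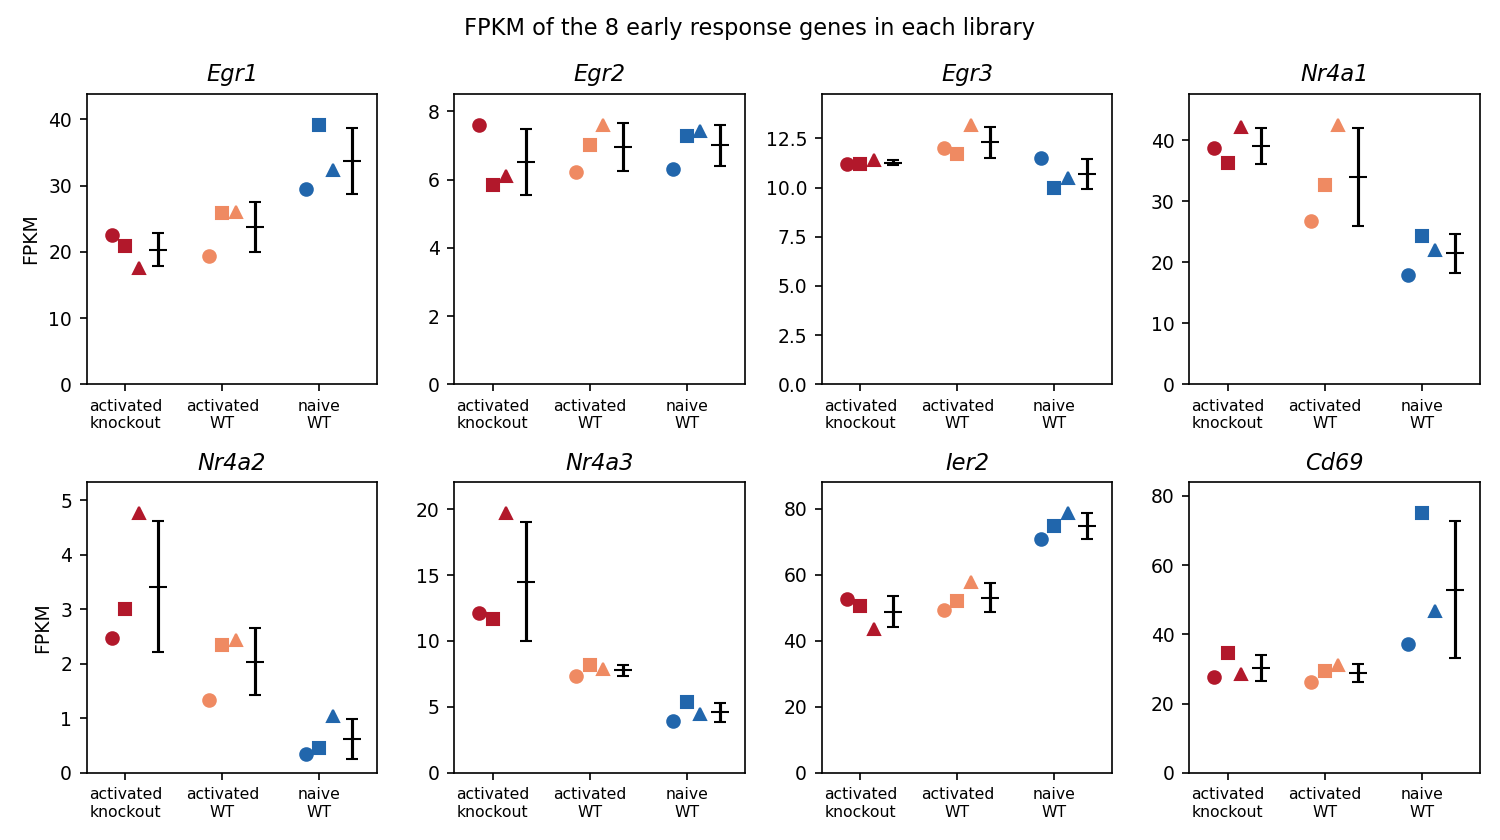
FPKM of the 8 genes in each library, 1 panel per gene, with the activated knockout, activated WT and naive WT groups from left to right; points are libraries 1 (circle), 2 (square) and 3 (triangle), and bars give the group mean ± SD (n = 3). The NR4A panels are lowest in naive cells, the Egr1, Ier2 and Cd69 panels are highest there, and the Egr2 points overlap across the groups.

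Activated WT cells were first set against naive WT cells, which asks which of these transcripts differed after 3 days of stimulation. The 3 NR4A genes were higher in activated cells, and Egr1, Ier2 and Cd69 were lower, so the early response genes did not move as a block. Of the 8 genes, 6 were called at a limma adjusted p under 0.05, 3 higher and 3 lower. In the background, 52.0% of the 15126 tested genes were called, 26.2% higher and 25.8% lower. At 7 of the 8 genes the groups did not overlap, against 59.4% of the tested genes. The median log2 fold change was 0.09 over the 8 genes and -0.01 over all tested genes. Fold changes are differences of log2(FPKM + 1), a scale on which a low gene's change looks smaller than it is. RNA was taken from bulk samples, in which fewer cells expressing a gene and less RNA per cell cannot be told apart.

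Egr1 encodes a transcription factor induced by growth factors and by antigen receptors alike. It lies on the plus strand of chromosome 18 (chr18:34859823-34864984, GRCm38, GENCODE M21), and no annotated gene overlaps it or any of the other members. It was read at 19.4, 25.8 and 26.0 FPKM in activated WT libraries and at 29.5, 39.2 and 32.3 in naive WT libraries. Each activated library lay below each naive one, and naive library 2 was the highest. Egr1 fell in activated cells (limma log2 fold change -0.49, SE 0.152, adjusted p = 0.0274). The call was lost with array quality weights (-0.31, limma adjusted p = 0.0516) and without naive library 2 (-0.38, adjusted p = 0.0852), naive library 3 (-0.51, adjusted p = 0.0525) or activated WT library 1 (-0.36, adjusted p = 0.0835).

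Egr2 and Egr3 encode paralogues that in T cells are known for restraining activation and for the programme of anergy. Egr2 (chr10:67535475-67542188, plus strand) was read at 6.22, 7.02 and 7.61 FPKM in activated WT libraries, against 6.32, 7.29 and 7.42 in naive WT libraries. The groups overlapped almost entirely (log2 fold change -0.01, 95% confidence interval -0.28 to 0.25, limma adjusted p = 0.941). Egr3 (chr14:70077203-70082614, plus strand) was read at 12.0, 11.7 and 13.2 FPKM in activated WT libraries and at 11.5, 10.0 and 10.5 in naive WT libraries. The Egr3 groups did not overlap, yet the difference missed the threshold (limma log2 fold change 0.19, SE 0.0716, adjusted p = 0.0537). It passed under 4 of the 19 alternative settings, among them median-of-ratios scaling (limma adjusted p = 0.022) and leaving out naive library 1 (adjusted p = 0.0362).

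The balance within the EGR family differed between naive and activated libraries, whereas knockout and activated WT libraries overlapped in the share of each gene. The shares were not tested. Summed over Egr1, Egr2 and Egr3, the family reached 38.1 ± 3.1 FPKM in the knockout, 43.0 ± 4.83 in activated WT and 51.3 ± 4.77 in naive WT cells. Egr1 held 53.2 ± 2.73% of that sum in the knockout, 55.0 ± 3.13% in activated WT and 65.4 ± 3.61% in naive WT cells. Egr3 held 29.7 ± 2.71%, 28.8 ± 2.75% and 21.0 ± 3.3%, and Egr2 17.1 ± 1.53%, 16.2 ± 0.351% and 13.7 ± 0.985%. Egr4, the remaining family member, was too low to be tested, with 0 FPKM in 2 of the naive libraries. The EGR proteins are held in check by the co-repressors NAB1 and NAB2, and Nab2 is itself a known EGR target. Nab2 rose in activated WT cells (28.5 ± 2.43 FPKM, against 21.5 ± 0.757 in naive WT cells; limma log2 fold change 0.39, SE 0.0939, adjusted p = 0.00969). Nab1 averaged 31.8 ± 2.21 FPKM in activated WT cells and 27.3 ± 4.05 in naive WT cells and was not called (limma adjusted p = 0.145).

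Ier2, the immediate early gene, lies at chr8:84661331-84662852 on the minus strand. Its level was 49.2, 52.2 and 57.9 FPKM in activated WT libraries, against 70.9, 74.7 and 78.7 in naive WT libraries. All activated libraries lay well below all naive ones. Ier2 fell in activated cells (limma log2 fold change -0.49, SE 0.0918, adjusted p = 0.00297). It was the only one of the 8 genes called in this comparison under all 19 alternative settings, with limma adjusted p between 0.00085 and 0.0129.

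Nr4a1, which encodes NUR77, lies at chr15:101254269-101274795 on the plus strand. It was read at 26.8, 32.7 and 42.6 FPKM in activated WT libraries and at 18.0, 24.4 and 22.0 in naive WT libraries. No activated library was as low as a naive one, and activated WT library 3 was the highest. Nr4a1 rose in activated cells (limma log2 fold change 0.63, SE 0.172, adjusted p = 0.0164). Leaving out naive library 1 moved its adjusted p to 0.0588.

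Nr4a2, which encodes NURR1, lies at chr2:57106830-57124003 on the minus strand. It was read at 1.33, 2.35 and 2.43 FPKM in activated WT libraries, against 0.344, 0.463 and 1.04 in naive WT libraries. The ratio of the group means, 3.31, was the largest among the 8 genes in this comparison, although activated WT library 1 and naive library 3 lay close together. The difference passed (limma log2 fold change 0.91, SE 0.251, adjusted p = 0.0165). With a pseudocount of 0.1 in place of 1 the log2 fold change was 1.65 (limma adjusted p = 0.0101). The call was lost without naive library 1 (limma adjusted p = 0.0588), naive library 2 (0.0511), activated WT library 2 (0.0566) or activated WT library 3 (0.0534).

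Nr4a3, which encodes NOR1, lies at chr4:48045153-48086447 on the plus strand. Activated WT libraries held 7.32, 8.14 and 7.89 FPKM of it, against 3.90, 5.39 and 4.44 in naive WT libraries. Activated libraries were close to each other and all above the naive ones. Nr4a3 rose in activated cells (limma log2 fold change 0.66, SE 0.191, adjusted p = 0.02). Its call was lost without naive library 1 (limma adjusted p = 0.0711), naive library 3 (0.053), activated WT library 2 (0.0614) or activated WT library 3 (0.0521).

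Together the 3 NR4A genes summed to 57.0 ± 8.46 FPKM in the knockout, 43.8 ± 8.77 in activated WT and 26.6 ± 4.07 in naive WT cells. Nr4a1 made up 69.1 ± 5.07% of the sum in the knockout, 77.3 ± 2.8% in activated WT and 80.5 ± 0.404% in naive WT cells. The share of Nr4a3 was 25.1 ± 3.93%, 18.1 ± 2.96% and 17.1 ± 0.907% in those groups, and that of Nr4a2 was 5.87 ± 1.25%, 4.6 ± 0.8% and 2.27 ± 1.33%. In naive cells the summed EGR level was above the summed NR4A level, in activated WT cells both sums were within 1 SD of each other, and in the knockout the NR4A sum was the higher.

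**Figure D2:**
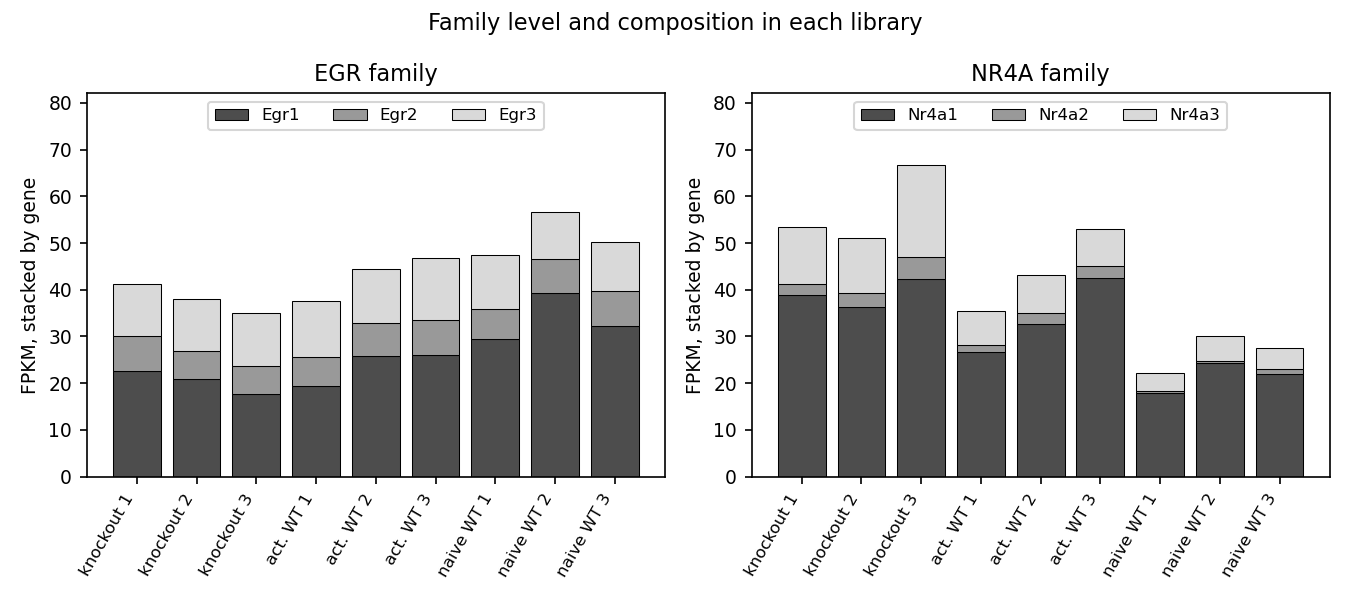
Stacked bars of the FPKM of the 3 EGR genes (left) and the 3 NR4A genes (right) in each library, with the activated knockout, activated WT and naive WT libraries from left to right; bar height is the family sum and the shades are its members. The EGR mean is 51.3 FPKM and the NR4A mean 26.6 FPKM in naive WT cells, against 43.0 and 43.8 FPKM in activated WT cells.

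Because all 3 NR4A genes rose in activated WT cells, their start regions are shown, with a start region of Egr2, which was not called. Windows of these 4 of the 8 genes were matched by symbol. Egr1 was left out by choice, and windows of Egr3, Ier2 and Cd69 are not analysed here. No gene that fell is among the 4, so the windows do not compare genes that rose with genes that fell. The windows of 300 bases, 250 before and 50 after an annotated start, are RefSeq sequences of GRCm38.p6, printed in the direction of transcription. They are chr15:101266596-101266895 (plus strand) for Nr4a1, a start that lies inside the GENCODE span of the gene, chr2:57123954-57124253 (minus strand) for Nr4a2, chr4:48045055-48045354 (plus strand) for Nr4a3 and chr10:67537619-67537918 (plus strand) for Egr2, which has 5 windows in the table. Capitals mark the matches to 8 motifs searched on both strands, described after the sequences.
Nr4a1: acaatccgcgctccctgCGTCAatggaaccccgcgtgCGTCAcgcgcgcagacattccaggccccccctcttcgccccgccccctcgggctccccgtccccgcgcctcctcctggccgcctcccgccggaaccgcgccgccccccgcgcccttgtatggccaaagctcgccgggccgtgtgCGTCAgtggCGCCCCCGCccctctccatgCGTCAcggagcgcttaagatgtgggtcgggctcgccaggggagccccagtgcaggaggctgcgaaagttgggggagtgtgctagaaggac
Nr4a2: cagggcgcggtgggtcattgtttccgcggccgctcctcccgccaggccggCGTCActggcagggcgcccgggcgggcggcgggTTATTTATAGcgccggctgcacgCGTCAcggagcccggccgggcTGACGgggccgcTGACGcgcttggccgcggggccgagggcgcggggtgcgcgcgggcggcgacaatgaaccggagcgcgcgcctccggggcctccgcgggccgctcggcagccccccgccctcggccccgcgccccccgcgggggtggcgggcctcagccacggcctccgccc
Nr4a3: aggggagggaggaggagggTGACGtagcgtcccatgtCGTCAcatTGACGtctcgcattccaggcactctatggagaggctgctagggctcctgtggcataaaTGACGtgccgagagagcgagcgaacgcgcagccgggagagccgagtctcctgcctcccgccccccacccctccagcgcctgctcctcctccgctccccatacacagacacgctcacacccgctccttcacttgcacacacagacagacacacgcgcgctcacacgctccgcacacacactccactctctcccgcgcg
Egr2: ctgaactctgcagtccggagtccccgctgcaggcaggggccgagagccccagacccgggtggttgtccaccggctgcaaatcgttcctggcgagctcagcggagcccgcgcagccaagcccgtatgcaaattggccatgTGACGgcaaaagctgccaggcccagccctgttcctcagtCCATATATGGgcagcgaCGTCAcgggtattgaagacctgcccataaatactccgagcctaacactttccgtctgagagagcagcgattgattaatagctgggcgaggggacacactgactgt

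Each of the 3 NR4A windows held 4 matches to TGACG, the core of the cyclic AMP response element (CRE) bound by CREB family factors, read as TGACG on the printed strand or CGTCA where it lies on the other strand. At least 1 match was present in 20.8% of the 32851 windows of this length in the table, and at least 4 in 0.231%. Nr4a2 also held a MEF2 site, the A- and T-rich run in its window, which was found in 3.19% of all windows. Nr4a1 held the EGR motif GCGGGGGCG on the opposite strand, found in 2.91%. The Egr2 window held a CArG box, the site of serum response factor (1.63% of all windows), and 2 matches to TGACG (at least 2 in 5.01%). Among the 5 Egr2 windows, which overlap in part, 4 held a CArG box and 3 held TGACG, and the window printed was chosen after these matches were seen. None of the 4 windows held the full CRE TGACGTCA (1.79% of all windows), the AP-1 motif TGANTCA (7.81%), the EGR motif GCGTGGGCG (0.612%) or the NR4A motif AAAGGTCA (1.51%). The TGACG matches are part of any full CRE, so these motifs are not independent. The cut-offs of 4 and 2 TGACG matches equal the counts in the printed windows, so those shares are a description and no test. A match describes letters and does not show binding. Srf and Crem, which encode factors that read the CArG box and the CRE, are given further on. No MEF2 gene is given singly.

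Cd69 lies at chr6:129267325-129275436 on the minus strand and encodes a receptor used as a surface marker of recent activation. It was read at 26.1, 29.5 and 31.0 FPKM in activated WT libraries, against 37.1, 75.0 and 46.7 in naive WT libraries. All naive libraries lay above all activated ones, and naive library 2 stood far above the other two. Cd69 fell in activated cells (limma log2 fold change -0.80, SE 0.23, adjusted p = 0.0204). Without naive library 2 the log2 fold change was -0.52 (limma adjusted p = 0.0212), and with array quality weights it was -0.47 (adjusted p = 0.0419). The call was lost without activated WT library 1 (limma adjusted p = 0.0676), without activated WT library 2 (0.0508) and when only the 6 libraries compared were fitted (0.0512).

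Naive library 2, the highest naive library for Cd69, Egr1, Nr4a1 and Nr4a3, also stood apart at other genes. Fos, the partner of Jun in AP-1, was at 17.1, 35.7 and 9.62 FPKM in naive libraries 1 to 3, Jun was at 13.1, 44.4 and 7.01, and the inducible heat shock gene Hspa1b was at 9.31, 52.6 and 18.6. Of 14 tested genes of the dissociation and heat shock list, 13 were highest in naive library 2 among the naive libraries, and so were 19 of 36 other early response genes, against 27.3% of all tested genes. This count was made after the values were seen. Hspa1b and Hspa1a are near-identical copies, so the split between them is uncertain. Neutrophil markers moved the same way, with S100a8 at 21.1, 292 and 46.0 FPKM, S100a9 at 28.7, 318 and 55.3 and the macrophage and granulocyte gene Lyz2 at 14.8, 166 and 44.2 in naive libraries 1 to 3. The 7 neutrophil markers summed to 0.304 to 1.53 FPKM in the knockout, 0.377 to 0.828 in activated WT (Camp at 0 throughout) and 54.7 to 661 in naive WT libraries. The 8 macrophage markers summed to 7.9 to 11.3, 10.5 to 13.1 and 24.5 to 199 FPKM, the 6 erythroid markers to 0.981 to 1.72, 0.816 to 1.02 and 63.6 to 84.2, and the 6 NK cell markers to 5.04 to 8.43, 2.67 to 5.72 and 11.9 to 49.2. The 7 B cell markers summed to 134 to 203 FPKM in the knockout, 144 to 183 in activated WT and 3.42 to 191 in naive WT libraries. The 6 dendritic cell markers summed to 1.78 to 2.07, 1.76 to 2.1 and 1.2 to 6.61 FPKM, with Clec9a at 0 in both activated groups. The part of these cell types in the values of Cd69, Egr1, Ier2 and the NR4A genes was not tested.

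Activated knockout cells were then set against activated WT cells, which asks what loss of BMPR1a changed in stimulated cells. None of the 8 genes passed, and the largest difference was a higher level of Nr4a3. By limma, 0 of 8 were called and 1, Nr4a3, had an unadjusted p under 0.05, as 25.0% of all tested genes had. In the background, 4.14% of tested genes were called, 3.30% higher and 0.840% lower. That is 626 genes, a number that ran from 64 (without activated WT library 2) to 1037 (without knockout library 1) when libraries were left out in turn, and with median-of-ratios scaling 166 genes were higher and 140 lower, against 499 and 127. At 3 of the 8 genes, Egr3, Nr4a2 and Nr4a3, the groups did not overlap, against 31.2% of the tested genes. The median log2 fold change was -0.01 over the 8 genes and 0.06 over all tested genes.

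Nr4a3 was read at 12.1, 11.7 and 19.7 FPKM in knockout libraries, against 7.32, 8.14 and 7.89 in activated WT libraries. All knockout libraries lay above all activated WT ones, and knockout library 3 stood apart from the other two. The ratio of the means was 1.86 and the log2 fold change 0.78 (95% confidence interval 0.34 to 1.23), which missed the threshold (limma adjusted p = 0.0604). The difference passed with array quality weights (0.91, limma adjusted p = 0.0137) and under none of the other 18 settings, over which its adjusted p reached 0.174. The two-sided exact permutation test gave p = 0.1, the smallest that 3 against 3 libraries allow, as it did at every gene whose groups did not overlap. The Cd8a level was 74.9, 105 and 107 FPKM in knockout libraries and 53.4, 52.0 and 79.3 in activated WT libraries, and its part in the Nr4a3 difference was not tested.

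Nr4a2 was read at 2.47, 3.00 and 4.76 FPKM in knockout libraries and at 1.33, 2.35 and 2.43 in activated WT libraries. The groups only just failed to overlap, and knockout library 3 was again the highest. Its log2 fold change was 0.53 (95% confidence interval -0.05 to 1.11, limma adjusted p = 0.239). Nr4a1 was read at 38.8, 36.3 and 42.2 FPKM in knockout libraries, inside the range of 26.8, 32.7 and 42.6 in activated WT libraries (log2 fold change 0.22, 95% confidence interval -0.18 to 0.61, limma adjusted p = 0.48). All 3 NR4A genes were highest in library 3 of the knockout group.

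Egr3 was read at 11.2, 11.2 and 11.4 FPKM in knockout libraries, against 12.0, 11.7 and 13.2 in activated WT libraries. The knockout libraries were nearly equal and all lower, by an amount that did not pass (log2 fold change -0.12, 95% confidence interval -0.28 to 0.05, limma adjusted p = 0.366). Egr1 averaged 20.3 ± 2.48 FPKM in the knockout and 23.7 ± 3.74 in activated WT cells (log2 fold change -0.21, 95% confidence interval -0.56 to 0.14, limma adjusted p = 0.439). Egr2 averaged 6.52 ± 0.952 FPKM in the knockout and 6.95 ± 0.699 in activated WT cells (log2 fold change -0.08, interval -0.35 to 0.18, limma adjusted p = 0.704). Both genes overlapped between the groups.

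Ier2 was read at 52.6, 50.5 and 43.5 FPKM in knockout libraries, against 49.2, 52.2 and 57.9 in activated WT libraries (log2 fold change -0.12, 95% confidence interval -0.33 to 0.09, limma adjusted p = 0.467). Cd69 was read at 27.7, 34.5 and 28.6 FPKM in knockout libraries, against 26.1, 29.5 and 31.0 in activated WT libraries (log2 fold change 0.07, interval -0.47 to 0.60, limma adjusted p = 0.906). The libraries of both groups were interleaved at Ier2 and at Cd69. The fit shares its estimate of the spread with the naive libraries, where Cd69 lay between 37.1 and 75.0 FPKM.

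The activated knockout was also set against naive WT cells, where genotype and activation differ together. The NR4A genes were higher in the knockout, and Egr1, Ier2 and Cd69 lower. This comparison shares its naive libraries with that of activated and naive WT cells. Of the 8 genes, 3 were higher and 3 lower, with 56.9% of tested genes called in the background, 31.8% higher and 25.1% lower. At 6 of the 8 there was no overlap, against 63.8% of tested genes. Nr4a3 rose (14.5 ± 4.52 FPKM in the knockout, against 4.58 ± 0.755 in naive WT cells; limma log2 fold change 1.45, SE 0.191, adjusted p = 0.00042), and so did Nr4a2 (log2 fold change 1.44, limma adjusted p = 0.00173) and Nr4a1 (0.84, adjusted p = 0.00373). Ier2 fell (48.9 ± 4.78 FPKM in the knockout, against 74.8 ± 3.88 in naive WT cells; limma log2 fold change -0.61, SE 0.0918, adjusted p = 0.000852), as did Egr1 (-0.70, adjusted p = 0.00519) and Cd69 (-0.73, adjusted p = 0.0265). Cd69 lost its call without knockout library 1 or 3, with array quality weights and when only the 6 libraries compared were fitted (limma adjusted p 0.0619 to 0.0778), and without naive library 2 its log2 fold change was -0.45 (adjusted p = 0.0311). With a pseudocount of 0.1 the log2 fold change of Nr4a2 was 2.36. Egr2 (log2 fold change -0.10, limma adjusted p = 0.494) and Egr3 (0.08, adjusted p = 0.385) overlapped between these groups and were not called.

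**Figure D3:**
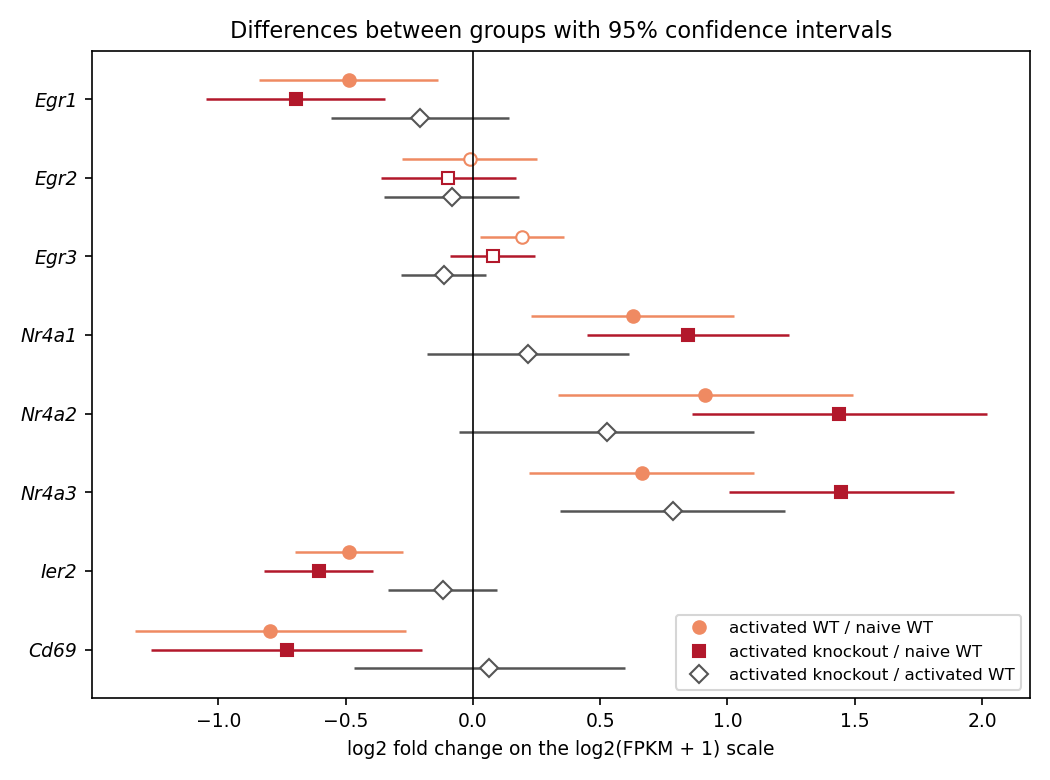
Difference of log2(FPKM + 1) with its 95% confidence interval for the 8 genes in activated WT against naive WT (circles), knockout against naive WT (squares) and knockout against activated WT cells (diamonds); filled points passed limma at an adjusted p under 0.05 and open points did not. No point is filled for knockout against activated WT cells, although the Nr4a3 interval of 0.34 to 1.23, unadjusted, lies above 0.

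Within groups, the 8 genes shared an order of libraries in part. In the activated WT group, library 1 was the lowest for 7 of the 8 genes and library 3 the highest for 7, against 37.5% and 39.7% of tested genes with the same extremes. In the naive WT group, library 1 was the lowest for 7 of 8, against 26.6% of tested genes. Naive library 2 was the highest for 4, Egr1, Cd69, Nr4a1 and Nr4a3, against 27.3% of tested genes. In the knockout group, library 3 was the highest for 4 genes, the NR4A genes and Egr3, against 33.0% of tested genes. Knockout library 1 was the highest for 3, against 35.9%, so these counts lay near the background. This order was counted after the values were seen and has no test.

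Genes with the most similar profile over the 9 libraries were looked up among 8357 genes that averaged 5 FPKM or more, by Pearson correlation of log2(FPKM + 1). The points share libraries and the group structure, so the values are a description. Nr4a2 was closest to the kinase gene Nek8 (r = 0.994). Nr4a3 was closest to Vcp, which encodes a segregase for ubiquitylated proteins (0.985), and to Nfkb2 and Atg7 (0.983 each), which act in non-canonical NF-kappaB signalling and in autophagy. Nr4a1 was closest to the ubiquitin gene Ubb and to Adk (0.969 each). Ier2 was closest to Gmip (0.983), Egr1 to Art2b (0.959), Egr3 to Vps39 (0.939) and Egr2 to Dedd (0.937). Cd69 was closest to Klhl2 (0.958) and to the heat shock genes Dnajb1 and Hspa1a (0.957 each), and Dnajb1 was at 43.1, 111 and 43.8 FPKM in naive libraries 1 to 3.

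Among 36 other tested early response genes, 11 were called higher and 11 lower in activated than in naive WT cells, with a median log2 fold change of -0.12, against -0.01 over all tested genes. Over all tested genes 26.2% were called higher and 25.8% lower. Dusp4, a phosphatase that switches off nuclear ERK, rose the most of those at 5 FPKM or more (16.9 ± 1.23 FPKM in activated WT, against 0.587 ± 0.159 in naive WT cells; log2 fold change 3.50, limma adjusted p = 4.98e-06), followed by the transcription factor gene Irf4 (43.8 ± 0.929 against 4.95 ± 1.65 FPKM; 2.95, adjusted p = 2.18e-05). Ier5, a relative of Ier2, fell (10.2 ± 0.129 FPKM in activated WT, against 52.1 ± 5.38 in naive WT cells; log2 fold change -2.24, limma adjusted p = 7.47e-06). In the knockout against activated WT cells 2 of the 36 were called, both higher: Gadd45b (12.8 ± 1.78 FPKM against 6.98 ± 0.742; log2 fold change 0.79, limma adjusted p = 0.0288), a stress sensor of the p38 pathway, and Dusp4 (29.2 ± 5.52 FPKM against 16.9 ± 1.23; 0.74, adjusted p = 0.0409). Gadd45b kept its call under 13 of 19 settings and Dusp4 under 6. Of all tested genes, 4.14% were called in the knockout against activated WT cells. An unadjusted limma p under 0.05 was found there for 6 of the 36, against 25.0% of all tested genes.

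**Figure D4:**
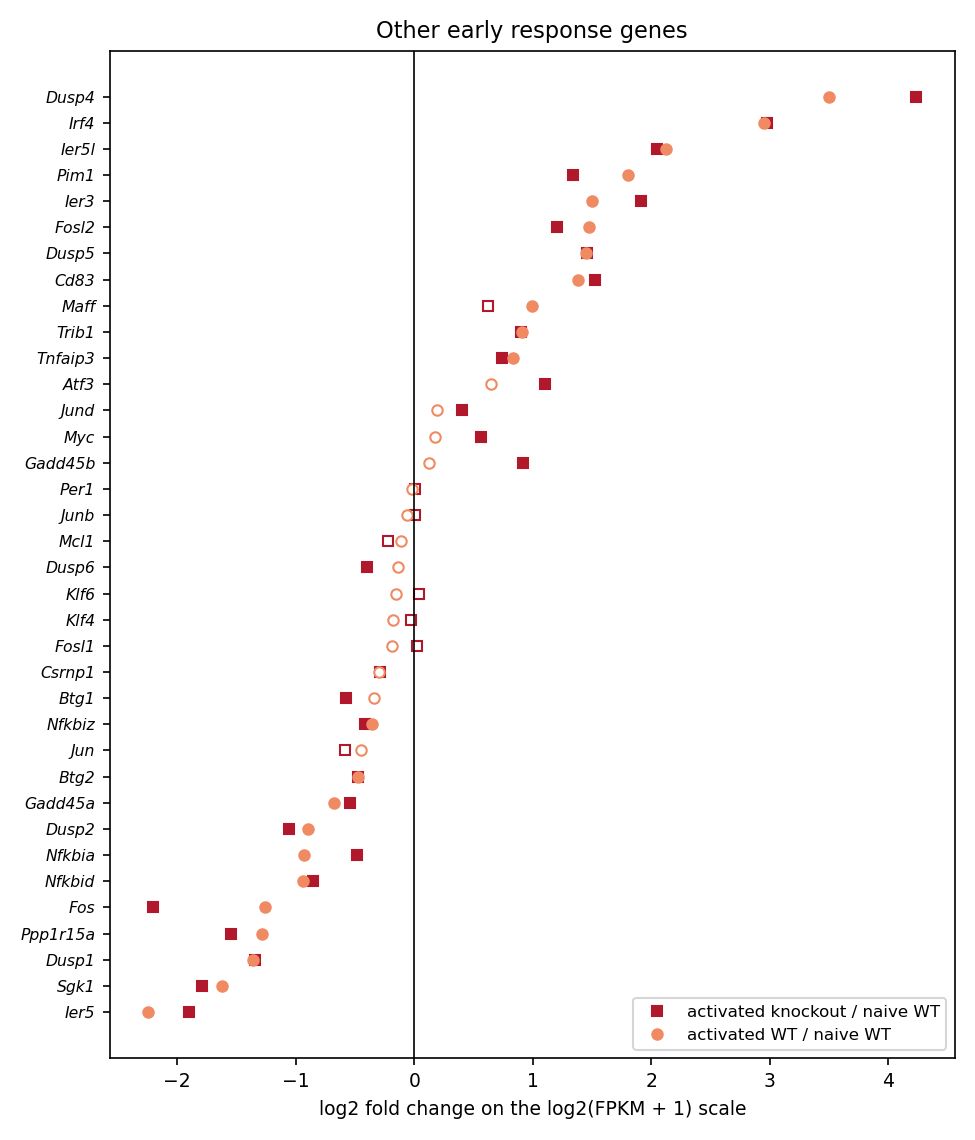
Difference of log2(FPKM + 1) of the 36 other tested early response genes for activated knockout against naive WT cells (squares) and activated WT against naive WT cells (circles), which share the naive libraries; filled symbols passed limma at an adjusted p under 0.05 and open ones did not. Genes run from Dusp4 at 3.50 and Irf4 at 2.95 at the top to Ier5 at -2.24 at the bottom, in the order of the activated WT values.

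Of 15 tested regulators that act on early gene promoters, 5 were higher and 4 lower in activated than in naive WT cells, with a median log2 fold change of 0.20. Among all tested genes 26.2% were called higher and 25.8% lower in that comparison. Srf, which encodes serum response factor, fell (18.9 ± 1.95 FPKM in activated WT, against 28.5 ± 0.544 in naive WT cells; log2 fold change -0.57, limma adjusted p = 0.000672). Crem, a CRE-binding factor with activating and repressing isoforms, rose (59.5 ± 3.55 FPKM against 8.24 ± 1.95; log2 fold change 2.73, limma adjusted p = 9.31e-06), and so did Hdac7, a deacetylase that MEF2 factors recruit to the Nr4a1 promoter in thymocytes (169 ± 8.24 FPKM against 58.3 ± 3.76; 1.52, adjusted p = 7.91e-06). Hdac7 was the only gene of this list called in the knockout against activated WT cells, where it fell (131 ± 9.2 FPKM against 169 ± 8.24; log2 fold change -0.37, limma adjusted p = 0.0448), and was called under 9 of 19 alternative settings. In that comparison 4.14% of all tested genes were called. Of 24 tested genes that carry the receptor signal to ERK and calcium, 6 were higher and 9 lower in activated than in naive WT cells (median log2 fold change -0.03) and limma called 0 in the knockout against activated WT cells (5 of 24 at an unadjusted p under 0.05, against 25.0% of all tested genes). The signalling adaptor gene Lat (log2 fold change -0.58), the Ras activator gene Rasgrp1 (-0.71) and Sos1 (-0.86) were among those that fell. Of 10 mRNA decay factor genes, 6 fell in activated WT cells and none rose (median log2 fold change -0.38), among them Zfp36, which encodes tristetraprolin, a factor that destabilises early response mRNAs (82.9 ± 15.9 FPKM in activated WT, against 143 ± 4.18 in naive WT cells; log2 fold change -0.79, limma adjusted p = 0.005).

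Genes reported downstream of these factors are set against the share of all tested genes called in activated against naive WT cells, 26.2% higher and 25.8% lower. Of 13 tested anergy-linked genes reported downstream of EGR2 and EGR3, 8 rose and 1, Dgka, fell (median log2 fold change 0.99), while Egr2 and Egr3 themselves were not called. Cblb, a ubiquitin ligase that raises the threshold of T cell activation, averaged 95.8 ± 3.67 FPKM in activated WT and 23.1 ± 3.44 in naive WT cells (limma adjusted p = 7.84e-06). Lag3, an inhibitory receptor, rose (191 ± 12.4 FPKM against 3.4 ± 1.59; log2 fold change 5.51, limma adjusted p = 4.03e-06). In the knockout Lag3 was the only gene of this list called against activated WT cells, lower (95.2 ± 3.5 FPKM against 191 ± 12.4; log2 fold change -0.999, limma adjusted p = 0.0478), a call that held under 7 of 19 alternative settings. In that comparison 7 of the 13 genes had an unadjusted limma p under 0.05, against 25.0% of all tested genes. Of all tested genes, 4.14% were called there. Of 7 tested genes reported downstream of NR4A factors, 4 rose and 1 fell (median log2 fold change 0.86). Ctla4, an inhibitory receptor, rose (283 ± 15.1 FPKM in activated WT, against 5.37 ± 0.89 in naive WT cells; log2 fold change 5.49, limma adjusted p = 5.19e-07), whereas Tox, a nuclear factor of exhausted T cells, fell (6.87 ± 1.14 FPKM against 14.7 ± 2.68; limma adjusted p = 0.00119). In the knockout against activated WT cells limma called 0 of these 7 (median log2 fold change -0.04). There 2 of the 7 had an unadjusted limma p under 0.05, against 25.0% of all tested genes.

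Of 10 tested genes around CD69 and sphingosine phosphate, 1 rose and 3 fell in activated WT cells (median log2 fold change -0.11). Of all tested genes, 26.2% were called higher and 25.8% lower in that comparison. In the knockout against activated WT cells limma called 1 of the 10, which was lower, against 4.14% of all tested genes. There 5 of the 10 had an unadjusted limma p under 0.05, against 25.0% of all tested genes. S1pr1, the receptor that CD69 draws from the surface, averaged 136 ± 15.7 FPKM in activated WT and 174 ± 35.2 in naive WT cells and was not called (limma adjusted p = 0.256). Its activator Klf2 fell (101 ± 6.49 FPKM in activated WT, against 157 ± 20.1 in naive WT cells; log2 fold change -0.63, limma adjusted p = 0.0385), a call held under 11 of 19 alternative settings. In the knockout both genes were lower than in naive WT cells. S1pr1 averaged 94.0 ± 30.2 FPKM (limma log2 fold change -0.91, adjusted p = 0.0112) and Klf2 68.4 ± 23.8 FPKM (-1.23, adjusted p = 0.00167). These calls held under all 19 alternative settings. Knockout and activated WT libraries overlapped at both genes, and neither was called (limma adjusted p = 0.18 and 0.134). Of 11 other surface activation genes, 7 rose and 1 fell in activated WT cells (median log2 fold change 1.58), and those that rose include the interleukin-2 receptor gene Il2ra (57.9 ± 14.6 FPKM in activated WT, against 1.84 ± 0.192 in naive WT cells; log2 fold change 4.35, limma adjusted p = 7.55e-05). Cd44, a marker of the sort, averaged 26.0 ± 2.71 FPKM in activated WT and 11.4 ± 2.3 in naive WT cells. In the knockout against activated WT cells limma called 0 of these 11 (1 of 11 at an unadjusted p under 0.05, against 25.0% of all tested genes).

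Against naive WT cells, where 31.8% of all tested genes were called higher and 25.1% lower, the activated knockout gave 14 higher and 13 lower of the 36 early response genes, 6 and 5 of the 15 promoter regulators, 6 and 7 of the 24 signalling genes, 7 and 2 of the 13 anergy-linked genes, 5 and 1 of the 7 genes reported downstream of NR4A, 0 and 3 of the 10 genes around CD69, 8 and 1 of the 11 surface genes, 1 and 4 of the 10 decay factors and 1 and 4 of the 14 dissociation and heat shock genes. Nab2 rose in that comparison (26.4 ± 3 FPKM in the knockout, against 21.5 ± 0.757 in naive WT cells; limma adjusted p = 0.0346), and was called under 11 of 19 alternative settings. In the heat shock list, 1 gene rose and 4 fell in activated against naive WT cells as well, among them Hspa1b (0.215 ± 0.0946 FPKM in activated WT, against 26.8 ± 22.8 in naive WT cells). The share of all tested genes called there was 26.2% higher and 25.8% lower.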

How the data were processed

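RNA sequencing of 9 libraries was deposited by the authors as a table of FPKM values. The submitters' processing notes name TopHat2, Cufflinks, Cuffdiff and GRCm38. Tool versions, annotation and strand setting: not given in the sources used here. FPKM values are fractional estimates, so the depth per library is unknown and no counting interval was computed. Of 25759 identifiers, 24876 matched a symbol, and positions come from GENCODE M21.

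Groups came from the sample titles. The 15126 genes that averaged 0.5 FPKM or more entered limma (3.58.1, R 4.3.3) as log2(FPKM + 1), with group means of all 9 libraries in 1 model and an intensity trend in the moderated test. Tests were two-sided, adjusted by Benjamini-Hochberg over all genes tested and called under 0.05. Alternatives were other pseudocounts, filters, scalings and weights, a fit of 6 libraries, a replicate block and leaving out each library. The 8 genes and the 18 other gene lists were chosen with earlier results of these data known. Named were the 8 genes, Bmpr1a, up to 3 called list genes per comparison with the largest change at 5 FPKM or more, the leading marker genes, and the 3 genes most like each profile. A few others (S1pr1, Nab1, Cblb, Dgka, Tox, Jun, Cd44, Egr4) were named after their values were seen. A gene of the list around CD69 is counted but not reported here.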

Additional observations from a re-analysis of the deposited data

How the results depend on the processing

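Of 456 values of the 8 genes under the 19 alternatives, 422 kept their direction and their side of the threshold, 20 lost a call, 5 gained one and 9 changed direction. Egr2 in activated against naive WT cells changed direction with median-of-ratios scaling (0.0196) and array quality weights (0.0804), and ran from -0.0759 to 0.0553 when libraries were left out in turn. Cd69 in the knockout against activated WT cells did so with median-of-ratios scaling (-0.00959) and quantile normalization (-0.0276), and ran from -0.0307 to 0.124 when libraries were left out. The cause was not tested.

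The number of the 8 genes called ran from 3 (without activated WT library 2) to 6 in activated against naive WT cells when each library was left out in turn, from 5 to 6 in the knockout against naive WT cells, and stayed at 0 in the knockout against activated WT cells, where array quality weights gave 1. The background of that comparison moved more. It was 626 genes (499 higher, 127 lower), 416 with no filter, 306 with median-of-ratios scaling (166 higher, 140 lower), 324 with quantile normalization (183 higher, 141 lower), 3851 with array quality weights, 92 with only the 6 libraries, and 64 (without activated WT library 2) to 1037 (without knockout library 1) when libraries were left out, with naive library 3 the only one that did not move it by over 1.5 times. In the knockout against naive WT cells, 4810 of 8603 calls were higher, against 3886 of 8861 with quantile normalization.

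Libraries of the same number share only that number: the correlations of their deviations from group means were 0.003 to 0.054 over 9 pairs, and -0.068 to 0.038 over the other 18, and not every library correlated best with its own number. With the replicate block, 7447 genes were called in activated against naive WT cells, 58 in the knockout against activated WT cells and 8235 in the knockout against naive WT cells, and 6, 0 and 6 of the 8 genes. Without counts, what depth limits cannot be given.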
